A study of Mus musculus with 6 samples.

Results

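The measurements concern 10 genes of costimulation and of the tumour necrosis factor (TNF) family, taken by name from the 33696 genes of the deposited matrices and followed across 6 classes of lymphocyte from mouse liver. They are the CD28 family receptors Cd28 and Icos, the TNF receptors Cd27, Tnfrsf4 (OX40), Tnfrsf9 (4-1BB) and Tnfrsf18 (GITR), and the TNF ligands Cd40lg (CD40 ligand), Tnfsf8 (CD30 ligand), Tnfsf10 (TRAIL) and Fasl (Fas ligand). All 10 were present in every RNA library.

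Single cells from the liver were read for RNA and for T cell receptor (TCR) sequences in 3 groups. These were wild-type mice on a 60% high-fat diet (WT HFD), wild-type mice whose 60% high-fat diet held 0.25% hyodeoxycholic acid, a bile acid (WT HFD+HDCA), and Ja18-/- mice on the diet with 0.25% hyodeoxycholic acid (iNKT KO HFD+HDCA). The deletion removes the TCR segment that invariant natural killer T (iNKT) cells need, and no other allele, promoter or Cre is named. Every group ate the high-fat diet for 12 weeks, and a normal diet named in the design was not analysed here. The sources used here do not state how many mice gave a library, nor their age or sex. Each group has 1 RNA library and 1 TCR library, so differences between groups are differences between single libraries. One label text describes sorting on CD45 and another speaks of CD4 cells, and the B cells and natural killer (NK) cells counted in these libraries fit the former.

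A T cell that meets its antigen needs a costimulatory signal to divide and to make cytokines. CD28 gives it on binding CD80 or CD86, and ICOS, which is induced by activation, on binding ICOS ligand. TNF receptors of activated lymphocytes recruit TRAF adaptors and feed NF-κB, which favours survival. CD40 ligand licenses B cells and antigen-presenting cells through CD40, whereas Fas ligand and TRAIL bind death receptors on target cells. Regulatory T cells are known for GITR and OX40, and the type 1 innate lymphoid cells (ILC1) of the liver for TRAIL.

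The RNA libraries held 6479, 10228 and 7153 barcodes with 44332213, 70776925 and 46600746 unique molecular identifiers (UMIs, each a counted RNA molecule), here and below in the order in which the groups were introduced. After filters 6201, 9672 and 6816 cells were kept, at medians of 5626, 5462.5 and 5130 UMIs. Between 67 and 93 barcodes occurred in both libraries of a pair, at most 1.30% of the smaller library. UMIs of Traj18, the targeted segment, numbered 161, 144 and 0 in kept cells. Cells with an invariant contig numbered 332, 450 and 1, and the contig of the single knockout cell rested on 2 UMIs.

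The iNKT class was set by a productive contig that joins TRAV11 or TRAV11D to TRAJ18, which lies on chromosome 14. The nucleotide sequences of its CDR3, the loop that meets the antigen, are shown because they set this class. The leading 3 sequences were found in 36.2%, 26.1% and 14.7% of 782 wild-type cells with such a contig, and differ at base 12 alone, counted from the first base of the CDR3 and given in capitals:
invariant CDR3 1: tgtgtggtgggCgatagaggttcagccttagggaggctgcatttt
invariant CDR3 2: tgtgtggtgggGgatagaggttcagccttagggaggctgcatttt
invariant CDR3 3: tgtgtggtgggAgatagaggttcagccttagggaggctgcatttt
Against the first, the second carries C12G and the third C12A.

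The iNKT class held 327 and 441 cells in the wild-type libraries. Its knockout counterpart of 1 cell was left out of every value below. Other T cells carried both TCR chains without the invariant contig. They were called CD4 (519, 527 and 377 cells), CD8 (868, 1403 and 942) or Foxp3-positive (34, 81 and 37) from UMIs of Cd4, Cd8a, Cd8b1 and Foxp3. NK cells (474, 759 and 394) and ILC1 (81, 109 and 263) had no contig and no Cd3e or Cd3d, and were parted by Eomes and Itga2 against Itga1 and Cxcr6. No member gene set a class. Marker lists were summed in CPM, that is UMIs of the genes scaled to a class total of 1000000 UMIs. The regulatory list of Foxp3, Ikzf2, Ctla4 and Il2ra summed to 2946, 2469 and 1794 CPM in Foxp3-positive cells and to 43.9 to 308 CPM in the other 5. The iNKT list of Zbtb16 and Klrb1c did not follow the names, at 336 and 373 CPM in iNKT cells. It summed to 957, 1075 and 1147 CPM in NK cells and 693, 890 and 893 CPM in ILC1, classes for which Klrb1c was a setting gene. The NK list was highest in NK cells, and the ILC1 list in ILC1. The T list of Cd3e, Cd3d, Cd3g, Trac and Trbc2 was not absent from innate cells, though Cd3e and Cd3d were by the class rule. It summed to 148, 149 and 168 CPM in NK cells and 404, 420 and 472 CPM in ILC1. T cell classes had 2871 to 3979 CPM. The part of these transcripts in differences between ILC1 and NK cells was not tested. Foxp3 of the regulatory list, and all genes of the NK and ILC1 lists but Prf1 and Il7r, also set classes. These sums are thus no independent check of the names.

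Levels below are CPM of a class, with exact Poisson 95% intervals in parentheses that cover counting error only. Overlap of classes refers to the range of these levels over the libraries, not to the intervals, and is no test. Differences between classes were tested by edgeR's quasi-likelihood method on UMIs summed per class and library, with library as a term. Adjusted p-values cover all genes tested, and a call means an adjusted p under 0.05. Since the 3 libraries differ in diet and genotype, a class difference that changes with them counted as error in these tests. Classes of one library share its source. In B cells, which stand for free RNA, the share of cells with a UMI stayed at or below 1.46% for the members at median depths of 4313 to 4539 UMIs, except for Tnfrsf18. Tnfrsf18 was seen in 9.12%, 9.06% and 8.58% of B cells, at 19.3, 20.4 and 19.1 CPM. Its level in monocytes was 1.77 to 4.72 CPM, so B cells were not taken as background for this gene. In monocytes, at medians of 8808 to 9563.0 UMIs, no member exceeded 3.77% of cells.

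Of 7 contrasts tested between classes, 6 had more than 5 of the 10 genes called, and ILC1 against NK cells had 5. Between Foxp3-positive and CD4 cells 5 were higher and 3 lower, where 4.49% and 4.82% of all genes tested were called higher and lower. Between CD8 and CD4 cells 3 were higher and 5 lower, against 7.57% and 7.84% of all genes, again higher and lower. Between iNKT and CD4 cells 4 were higher and 4 lower, against 10.2% and 11.2%. Between iNKT and CD8 cells 5 were higher and 2 lower, against 11.4% and 11.9%. Among innate cells, ILC1 exceeded NK cells for 4 and fell below them for 1, against 7.92% and 6.98%. For NK against CD8 cells 3 were higher and 6 lower, and for iNKT against NK cells 7 were higher and 2 lower. There 21.7% and 23.5% of all genes were called higher and lower for the former pair and 16.8% and 15.0% for the latter. The median log2 difference of all genes tested lay between -0.06 and 0.0018 in these contrasts.

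**Figure D1:**
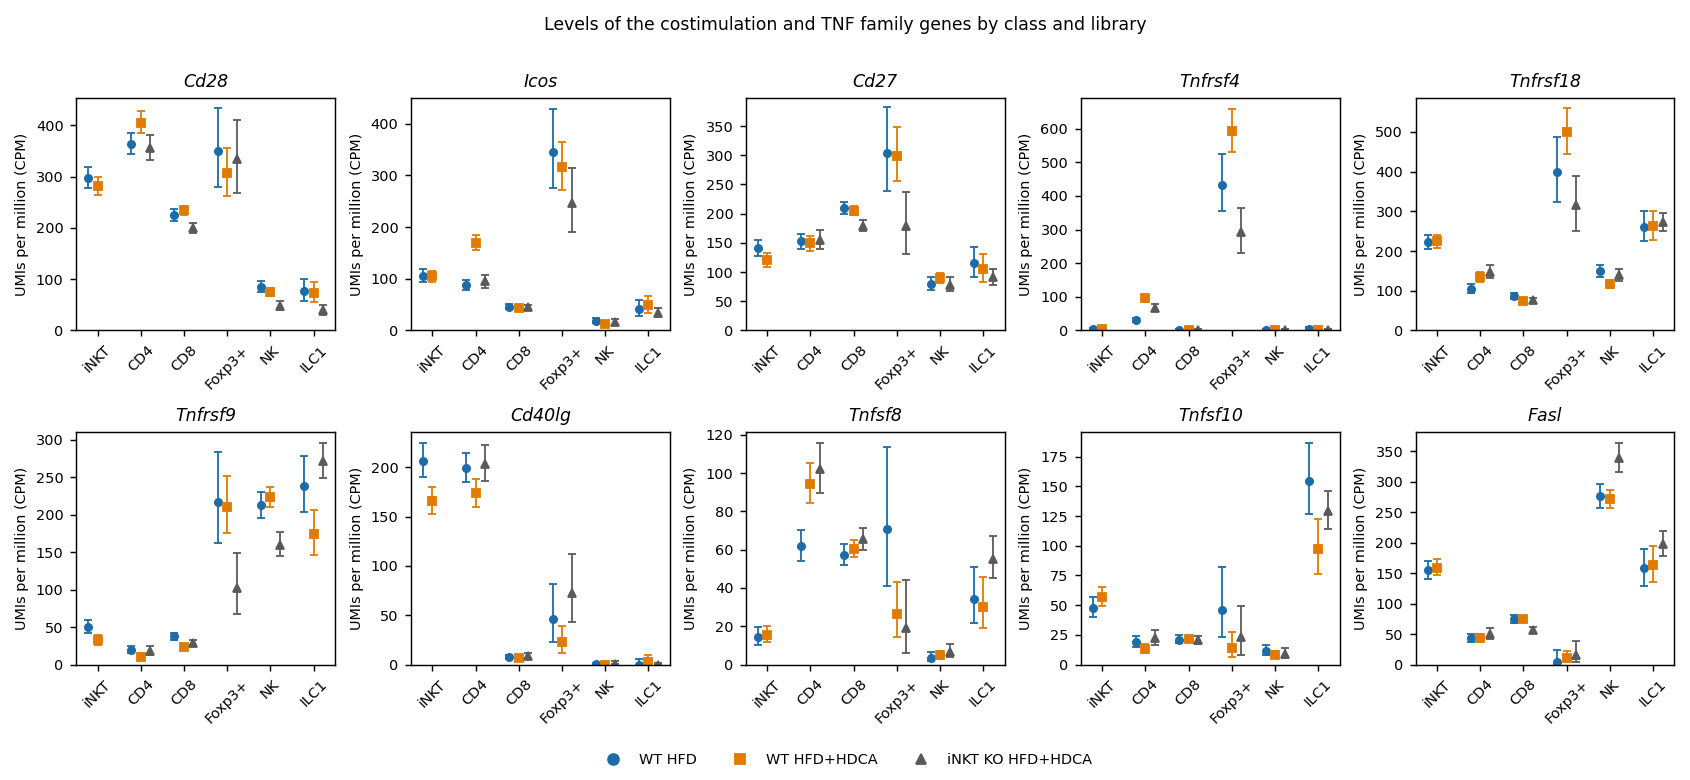
Levels of the 10 genes in CPM (vertical axes, linear from 0) in 6 classes (horizontal axes), each point 1 library with its exact Poisson 95% interval. Tnfrsf4 and Tnfrsf18 peak in Foxp3-positive cells at up to 592 and 499.8 CPM, Tnfsf10 in ILC1 and Fasl in NK cells, and Cd40lg is near 0 in NK cells and ILC1.

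Cd28 was the receptor shared most evenly among T cells. Its level was 364, 406 and 355 CPM in CD4 cells, 350.0, 307 and 334 in Foxp3-positive cells, 297 and 282 in iNKT cells and 225, 234 and 199.8 in CD8 cells. NK cells had 85.6, 74.7 and 47.7 CPM and ILC1 76.7, 72.4 and 39.1. The ranges of the 4 T cell classes thus kept an order without overlap between neighbours, whereas those of NK cells and ILC1 overlapped. The log2 difference of Foxp3-positive from CD4 cells, -0.37 ± 0.13 (standard error), was not called (adjusted p = 0.0941). Cd28 was lower in CD8 than in CD4 cells (log2 difference -0.67 ± 0.10, standard error, adjusted p = 9.10e-05) and lower in NK than in CD8 cells (-1.92 ± 0.12, adjusted p = 2.58e-11). It was also lower in iNKT than in CD4 cells (-0.54 ± 0.12, adjusted p = 0.00241), a call that ended without the WT HFD+HDCA library (-0.50). Between iNKT and CD8 cells the log2 difference was 0.13 ± 0.12 (adjusted p = 0.512). A UMI was seen in 32.1%, 28.6% and 19.3% of NK cells, far above the share in B cells.

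Icos, the inducible relative of Cd28, was highest in Foxp3-positive cells at 346, 315 and 246 CPM. CD4 cells had 87, 169 and 94.6 CPM and iNKT cells 106 and 104 with overlapping ranges. In CD4 cells the WT HFD+HDCA library stood above the other two. Below them came CD8 cells with 45.9, 44 and 45 CPM, ILC1 with 41.2, 48.7 and 33.4 and NK cells with 18.5, 13.3 and 16. Foxp3-positive cells exceeded CD4 cells 2.32-fold (log2 1.21 ± 0.18, adjusted p = 1.35e-04), and CD8 cells lay below CD4 cells (-1.26 ± 0.15, adjusted p = 5.65e-06). ILC1 were above NK cells (1.40 ± 0.27, adjusted p = 0.00102). The log2 difference of iNKT from CD4 cells, -0.28 ± 0.18, did not pass the threshold (adjusted p = 0.302), and it was 0.15 when CD4 cells with a Ctla4 or Ikzf2 UMI were left out.

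Cd27, a receptor of resting and memory lymphocytes for CD70, differed less between classes than the other members, by the ratio of the highest to the lowest class mean. Foxp3-positive cells had 304, 299.5 and 178 CPM, a range that overlapped that of CD8 cells at 209, 205 and 179. CD4 cells had 152, 149 and 155 CPM, iNKT cells 141 and 121, ILC1 115, 105 and 91.3 and NK cells 79.9, 89.5 and 78.5. From CD8 cells down to NK cells no ranges of neighbours overlapped, but the log2 difference of ILC1 from NK cells was not called (0.32 ± 0.13, adjusted p = 0.0948). Cd27 was higher in CD8 than in CD4 cells (log2 0.48 ± 0.09, adjusted p = 0.00100) and lower in iNKT than in CD8 cells (-0.83 ± 0.11, adjusted p = 7.86e-06). The excess of Foxp3-positive over CD4 cells (0.65 ± 0.13, adjusted p = 0.00166) was not called without WT HFD (0.58) or without WT HFD+HDCA (0.44). The deficit of iNKT against CD4 cells (-0.35 ± 0.11, adjusted p = 0.0328) ended under 5 alternatives, among them each left-out wild-type library (-0.49 and -0.29). The excess of iNKT over NK cells (0.67 ± 0.12) was also not called without WT HFD (0.50).

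Tnfrsf4 and Tnfrsf18 are neighbouring genes of chromosome 4, with no protein-coding gene between them in the GRCm38.p6 annotation, and both were highest in Foxp3-positive cells. Their levels in the other classes parted. Tnfrsf4 reached 433, 592 and 292 CPM in Foxp3-positive and 31.1, 95.7 and 67.7 CPM in CD4 cells. It was near 0 elsewhere, with 11 and 15 UMIs in iNKT cells (4.0 and 4.33 CPM), 1.91, 2.23 and 1.93 CPM in CD8 cells, and 3, 2 and 6 UMIs in NK cells. The share of NK cells with a Tnfrsf4 UMI, 0.633%, 0.264% and 0.508%, lay at the level of B cells, 0.732%, 0.518% and 0.229%, and is read as background. Foxp3-positive cells exceeded CD4 cells 6.33-fold (log2 2.66 ± 0.22, adjusted p = 1.96e-07). Both iNKT cells (-4.06 ± 0.38, adjusted p = 8.70e-08) and CD8 cells (-4.86 ± 0.29, adjusted p = 2.24e-10) lay far below CD4 cells.

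Tnfrsf18 was present in all 6 classes. Foxp3-positive cells had 400.0, 499.8 and 315 CPM, ILC1 261, 262 and 272, iNKT cells 222 and 224, NK cells 149.8, 118 and 139, CD4 cells 105, 135 and 148 and CD8 cells 86.5, 73 and 75.7. NK and CD4 cells overlapped, and the other neighbours in this order did not. The iNKT cells, which nearly lacked Tnfrsf4, exceeded CD8 cells 2.54-fold in Tnfrsf18 (log2 1.34 ± 0.14, adjusted p = 3.35e-07). They exceeded CD4 cells by 0.73 ± 0.15 on the log2 scale (adjusted p = 8.11e-04), which was not called without WT HFD (0.61). ILC1 were above NK cells (0.99 ± 0.14, adjusted p = 2.64e-05), and Foxp3-positive above CD4 cells (1.55 ± 0.15, adjusted p = 1.13e-06). Within Foxp3-positive cells, a Tnfrsf18 UMI was found in 19 of 19, 54 of 58 and 14 of 19 cells with a Tnfrsf4 UMI. Among cells without a Tnfrsf4 UMI the shares were 46.7%, 60.9% and 61.1%, and depth differs from cell to cell.

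Tnfrsf9, which is induced by activation, was high in innate and in Foxp3-positive cells. ILC1 had 239, 174 and 271 CPM, NK cells 213, 223 and 160.0 and Foxp3-positive cells 217, 211 and 102, 3 classes whose ranges overlapped. In WT HFD the Foxp3-positive value rested on 52 UMIs in 9 of 34 cells, with 40.4% of these UMIs in 1 cell. Much lower came iNKT cells with 50.1 and 32.3 CPM, CD8 cells with 37.6, 23.9 and 29 and CD4 cells with 19.9, 10.6 and 18. NK cells exceeded CD8 cells 5.68-fold (log2 2.51 ± 0.18, adjusted p = 3.85e-10), and Foxp3-positive exceeded CD4 cells 10.5-fold (3.39 ± 0.30, adjusted p = 3.11e-07). ILC1 and NK cells differed by 0.24 ± 0.18 (adjusted p = 0.476). The excess of CD8 over CD4 cells (1.0 ± 0.25, adjusted p = 0.00726) and that of iNKT over CD4 cells (1.24 ± 0.29, adjusted p = 0.00326) were not called without WT HFD (1.05 and 1.18).

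Of the members on chromosome 4, Tnfrsf4, Tnfrsf18 and Tnfrsf9 were each called higher in Foxp3-positive than in CD4 cells, whereas Tnfsf8 was called lower. For the genes called higher, the 250 bases before the annotated starts are shown, from RefSeq on GRCm38.p6, all on the plus strand. Capitals mark matches on either strand to 4 motifs, namely GGAAA (the core bound by NFAT), TGANTCA (AP-1), GGGNNTTTC (the start of an NF-κB consensus, whose end may overlap an NFAT core on the other strand) and AGGTGT (a T-box core):
Tnfrsf4, chr4:156013445-156013694: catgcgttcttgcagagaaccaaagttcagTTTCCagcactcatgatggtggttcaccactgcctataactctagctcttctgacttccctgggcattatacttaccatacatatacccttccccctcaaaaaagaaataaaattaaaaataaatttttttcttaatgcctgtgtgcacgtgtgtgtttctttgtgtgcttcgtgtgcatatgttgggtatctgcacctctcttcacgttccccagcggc
Tnfrsf18, chr4:156026072-156026321: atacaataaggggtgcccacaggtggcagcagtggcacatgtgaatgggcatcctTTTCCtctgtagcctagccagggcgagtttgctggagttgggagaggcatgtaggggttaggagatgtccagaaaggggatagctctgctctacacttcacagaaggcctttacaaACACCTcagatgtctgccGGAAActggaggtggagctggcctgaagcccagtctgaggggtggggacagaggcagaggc
Tnfrsf9, chr4:150927749-150927998: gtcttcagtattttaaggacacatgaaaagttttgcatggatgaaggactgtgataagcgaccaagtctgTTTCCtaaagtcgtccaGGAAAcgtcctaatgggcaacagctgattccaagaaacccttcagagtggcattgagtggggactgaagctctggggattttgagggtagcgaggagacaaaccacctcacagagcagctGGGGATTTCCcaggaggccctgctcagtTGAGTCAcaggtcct
The window of Tnfrsf9 held 1 AP-1 match, 1 NF-κB match and 3 NFAT cores. Tnfrsf18 held 1 T-box core and 2 NFAT cores, and Tnfrsf4 held 1 NFAT core. Of the 32851 promoter windows in the RefSeq set, 55.6% held an NFAT core, 6.75% the AP-1 motif, 3.72% the NF-κB motif and 11.8% a T-box core. In all, 7 of 10 members matched a window by symbol, and the NFAT core was also found before the others of these, Cd27, Tnfsf8, Tnfsf10 and Fasl. A further annotated start of Tnfrsf9 had NFAT cores only. These matches describe the letters of the window and show no binding.

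Cd40lg marked CD4 and iNKT cells. Its level was 199, 173 and 203 CPM in CD4 and 207 and 166 CPM in iNKT cells, 2 ranges that overlapped, with a log2 difference of -0.03 ± 0.14 (adjusted p = 0.925). A UMI was seen in 76.1% and 64.4% of iNKT and 61.7%, 54.3% and 60.7% of CD4 cells. Foxp3-positive cells had 45.8, 22.6 and 72.1 CPM on 11, 13 and 19 UMIs, below CD4 cells (-2.35 ± 0.23, adjusted p = 8.87e-07). CD8 cells had 7.11, 6.52 and 8.91 CPM, so iNKT cells exceeded them 23.3-fold (4.54 ± 0.17, adjusted p = 1.20e-13). In NK cells 1, 0 and 2 UMIs were counted and in ILC1 0, 2 and 0, in 0.211%, 0.00% and 0.508% of NK cells against 0.146%, 0.152% and 0.152% of B cells, which is background.

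Tnfsf8, the ligand of CD30, had its highest class means in CD4 and CD8 cells, at 86.1 and 61.0 CPM, followed by ILC1 at 39.9. CD4 cells had 61.7, 94.5 and 102 CPM and CD8 cells 57.3, 60.3 and 65.4, with overlapping ranges and a log2 difference of -0.38 ± 0.14 (adjusted p = 0.0746). ILC1 had 34.1, 30.3 and 55.3 CPM, Foxp3-positive cells 70.8, 26.1 and 19 on 17, 15 and 5 UMIs, iNKT cells 14.2 and 15.6 and NK cells 3.57, 4.71 and 6.75. Here iNKT cells were unlike CD4 cells, with a log2 difference of -2.47 ± 0.22 (adjusted p = 4.14e-08). ILC1 exceeded NK cells 8.57-fold (3.10 ± 0.30, adjusted p = 2.19e-07). The deficit of Foxp3-positive against CD4 cells (-1.44 ± 0.29, adjusted p = 0.00240) was not called without WT HFD+HDCA (-1.08) or with CD4 cells that had no Ctla4 or Ikzf2 UMI (-0.84).

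Tnfsf10, which encodes TRAIL, was highest in ILC1 in every library, at 155 CPM (127 to 187), 97.5 CPM (76.5 to 122) and 129 CPM (114 to 147). The iNKT cells came next with 48 and 57.1 CPM, a range that did not overlap with that of either neighbour. In WT HFD their interval (40.1 to 56.9) lay within that of Foxp3-positive cells (22.9 to 82.0), and these classes were not contrasted. Foxp3-positive cells had 45.8, 13.9 and 22.8 CPM on at most 11 UMIs, CD8 cells 21, 21.2 and 20.4, CD4 cells 18.8, 13 and 22.3 and NK cells 11.4, 8.35 and 8.86. ILC1 exceeded NK cells 13.3-fold (log2 3.73 ± 0.20, adjusted p = 6.36e-11). The iNKT cells exceeded CD4 cells 2.92-fold (1.55 ± 0.20, adjusted p = 5.68e-06) and CD8 cells 2.29-fold (1.19 ± 0.17, adjusted p = 2.14e-05). These 2 calls and that of ILC1 against NK cells held under all 12 alternatives. Some of these could not change the sums compared, such as the removal of the largest clonotypes for ILC1 and NK cells.

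Fasl, a death ligand of cytotoxic cells, was highest in NK cells at 276, 272 and 339 CPM. ILC1 with 158, 163 and 198 and iNKT cells with 155 and 159 CPM overlapped, and CD8 cells had 74.9, 75.1 and 56.1, CD4 cells 42.9, 43.1 and 50.5 and Foxp3-positive cells 4.17, 10.4 and 15.2 on 1, 6 and 4 UMIs. NK cells were above CD8 cells (1.84 ± 0.11, adjusted p = 2.17e-11) and ILC1 below NK cells (-0.74 ± 0.12, adjusted p = 1.92e-04). A higher level in iNKT than in CD4 cells (3.39-fold, log2 1.76 ± 0.14, adjusted p = 1.18e-08) was called, as was that over CD8 cells (2.07-fold, 1.05 ± 0.13, adjusted p = 2.43e-06). Of the 4 ligands, iNKT cells thus had Cd40lg at the range of CD4 cells, Tnfsf10 and Fasl above conventional T cells, and Tnfsf8 below them.

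**Figure D2:**
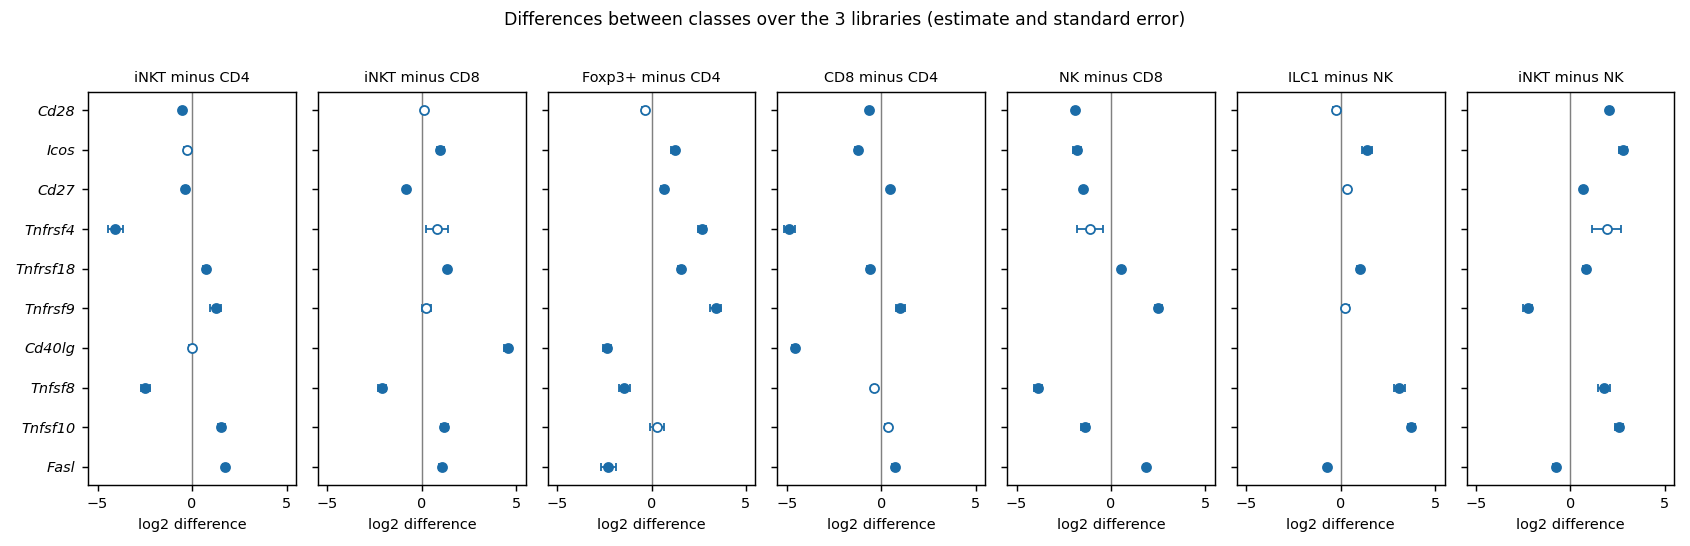
Log2 differences between classes (horizontal axes) for the 10 genes (rows), with standard errors as bars. Filled points have an adjusted p under 0.05, open points do not. Genes with fewer than 10 UMIs over the libraries of either class are left out of that panel. Tnfsf10 in ILC1 minus NK (3.73) and Tnfrsf4 in Foxp3-positive minus CD4 (2.66) stand far to the right.

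Combinations differed between classes as well. After every cell was thinned to 2000 UMIs, which left out at most 8 cells of a class and library, a Foxp3-positive cell carried UMIs of 2.79, 2.62 and 2.26 of the 10 genes on average. An iNKT cell carried 2.02 and 1.99, a CD4 cell 1.68, 1.89 and 1.74, an ILC1 1.77, 1.53 and 1.65, an NK cell 1.19, 1.14 and 1.22, and a CD8 cell 1.20, 1.25 and 1.09. None of the 10 was seen in 10.4% and 10.7% of iNKT cells, but in 24.2% to 31.1% of CD8 cells at this depth. The iNKT, CD4 and Foxp3-positive classes thus carried more of these genes per cell than CD8 and NK cells, in each library.

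CD4 and CD8 cells were then split by clonal size, read from the TCR contigs. Cells of clonotypes with 2 or more cells made up 10.2%, 16.5% and 21.2% of CD4 and 27.6%, 26.7% and 18.5% of CD8 cells. Against single-cell clonotypes, 4 of the 10 genes were higher and 1 lower in CD4 cells, where 7.59% and 7.61% of genes were called higher and lower. In CD8 cells 3 were higher and 1 lower, against 15.0% and 14.6% of all genes. Fasl was higher in expanded clones of both, at 87.9, 62.4 and 111 against 37.8, 39 and 35.7 CPM in CD4 cells (0.99 ± 0.18, adjusted p = 0.00197) and 177, 182 and 174 against 44.2, 46.8 and 37.4 CPM in CD8 cells (1.86 ± 0.12, adjusted p = 2.11e-07). Tnfsf8 was lower in expanded CD8 clones, 21.9, 14.7 and 24.6 against 67.9, 72.4 and 71.8 CPM (-2.04 ± 0.20, adjusted p = 4.16e-06). Cd27 was lower in expanded CD4 clones, 57.7, 81 and 99.8 against 163, 163 and 169 CPM (-1.21 ± 0.21, adjusted p = 0.00120). Tnfrsf18 was higher in them (0.93 ± 0.19, adjusted p = 0.00449). With at least 2 marker UMIs a cell the log2 difference of Fasl in CD4 clones was 0.74 and not called. The calls for Tnfrsf4 in CD4 clones (1.40 ± 0.24, 0.85 without WT HFD+HDCA), Tnfsf10 in CD4 clones (1.56 ± 0.33, 1.36 without WT HFD and 1.26 without the knockout) and Cd40lg in CD8 clones (0.73 ± 0.21, 0.85 without WT HFD+HDCA and 0.57 without the knockout) rested on those libraries.

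In WT HFD, 72 of the 77 cells of the largest clonotype were in the CD8 class. They carried Tnfrsf9 at 181 CPM, Cd27 at 432, Tnfrsf18 at 234 and Icos at 85.5 CPM, where all expanded CD8 cells of that library, this clonotype included, had 85.2, 276, 146 and 54.4 CPM. Their Cd28 level was 223 CPM beside 256, and Tnfrsf4 was 4.84 CPM on 3 UMIs beside 4.73. All expanded CD8 clones of the 3 libraries had Tnfrsf9 at 85.2, 32.3 and 26.4 CPM, against 23.3, 21.7 and 29.4 CPM in single-cell clonotypes. That difference, 0.71 ± 0.32 on the log2 scale, did not pass the threshold (adjusted p = 0.119), and it was 0.14 without the largest clonotype of each library. Cd28 had 256, 292 and 229 CPM in expanded and 216, 219 and 195 CPM in single-cell CD8 clonotypes and was not called (adjusted p = 0.388).

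**Figure D3:**
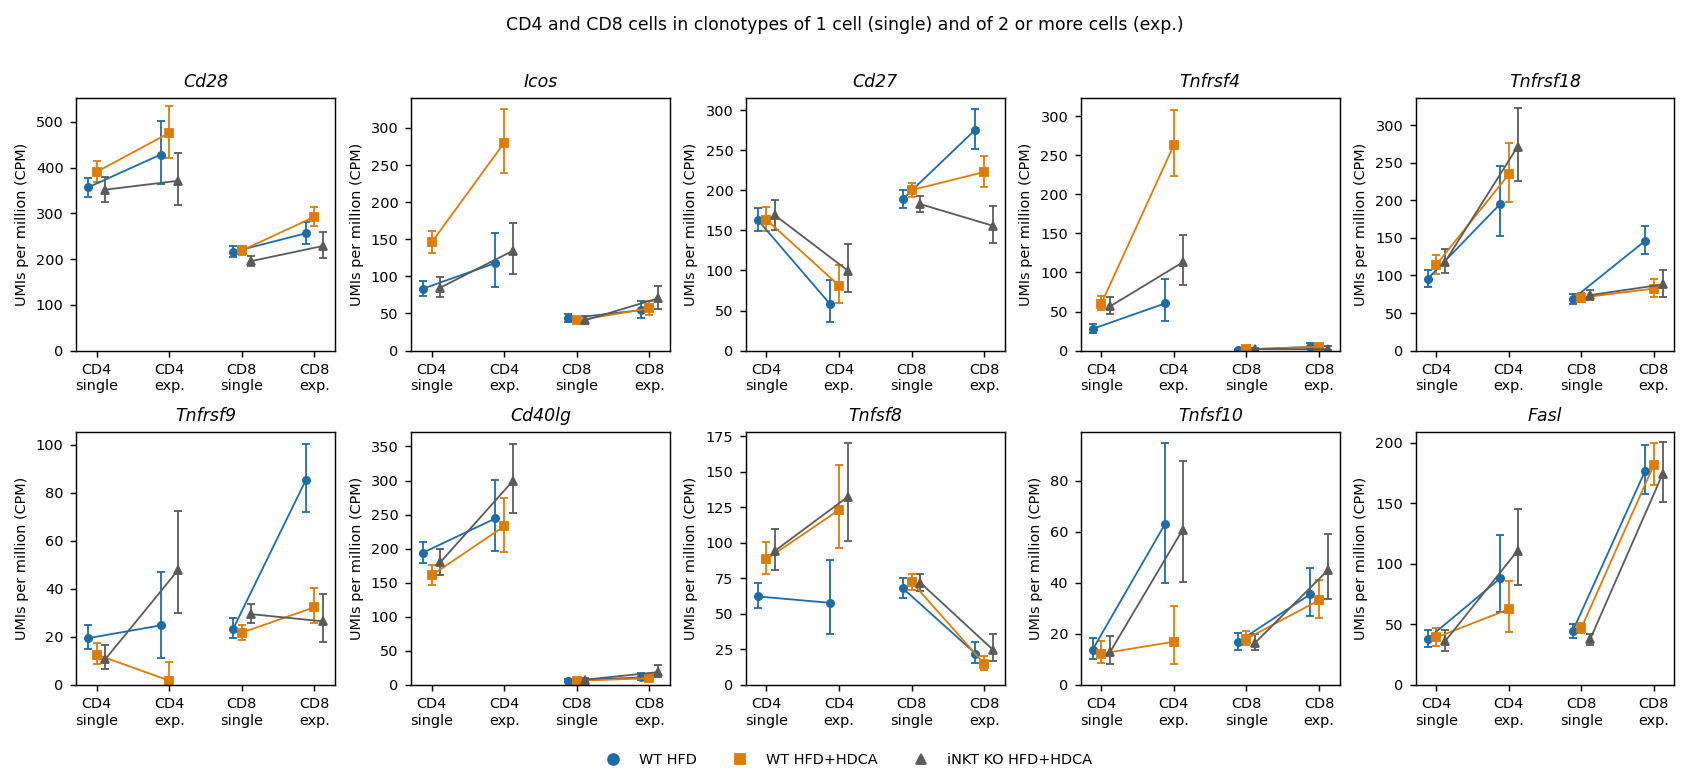
Levels of the 10 genes in CPM (vertical axes, linear from 0) in CD4 and CD8 cells of clonotypes with 1 cell (single) and with 2 or more cells (exp.), with lines joining both sides of a library and exact Poisson 95% intervals. In CD8 cells Fasl is higher and Tnfsf8 lower in expanded clonotypes of each library, at 177, 182 and 174 and 21.9, 14.7 and 24.6 CPM.

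The next question was what the diet with hyodeoxycholic acid did to these genes in wild-type mice. Ratios of WT HFD+HDCA to WT HFD carry conditional exact 95% intervals for counting error only. With 1 library a group there is no test. A ratio is called past the fold when it is at least 1.5 either way on at least 20 UMIs, with an interval that excludes 1. Of 54 values of a gene in a class with enough UMIs, 8 were past the fold, 3 higher and 5 lower. By class these were 4 in CD4 cells (5.68% of all genes), 1 in iNKT cells (3.50%), 1 in CD8 cells (3.80%), 1 in Foxp3-positive cells (9.04%), 1 in ILC1 (6.04%) and none in NK cells (3.57%).

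In CD4 cells 3 genes were past the fold upward and 1 downward. Icos went from 87 CPM (77.5 to 97.2) to 169 CPM (156 to 184), a ratio of 1.95 (1.69 to 2.24). Tnfrsf4 went from 31.1 CPM (25.6 to 37.5) to 95.7 CPM (85.6 to 107), a ratio of 3.07 (2.47 to 3.85). Tnfsf8 went from 61.7 CPM (53.8 to 70.4) to 94.5 CPM (84.4 to 105), a ratio of 1.53 (1.29 to 1.83), and its ratio was 1.48 with TMM scaling. So 2 receptors and a ligand were higher in the library with the bile acid. Cd28 had a ratio of 1.11 (1.03 to 1.20) and Tnfrsf18 of 1.28 (1.12 to 1.47), both under the fold. Tnfrsf9 was lower at 0.534 (0.347 to 0.808) on 107 UMIs, but 1.07 once cells were thinned to 2000 UMIs.

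The makeup of the CD4 class moved with these ratios. Cells with a UMI of Ctla4 or Ikzf2, genes of regulatory and activated T cells, made up 24.5%, 36.2% and 24.4% of the class. The summed level of the regulatory list was 153, 308 and 148 CPM, with Foxp3 at 0 by definition. The cycling genes Mki67 and Top2a summed to 49.6, 119 and 52.7 CPM, and their part was not tested. The neutrophil genes S100a8 and S100a9 summed to 1018 CPM in the WT HFD+HDCA class and were at 0 in the other 2 libraries, and their part was not tested. In the 392 and 336 CD4 cells with neither Ctla4 nor Ikzf2, the Icos ratio was still 1.89 (1.54 to 2.32). Those of Tnfrsf4, 1.30 (0.820 to 2.06), and Tnfsf8, 1.13 (0.879 to 1.45), were under the fold. Tnfrsf4 had 15.3, 19.9 and 24.5 CPM in cells without and 74, 213 and 199 CPM in cells with such a UMI, so its difference between the wild-type libraries lay in the latter. A Tnfrsf4 UMI was seen in 11.4%, 19.5% and 16.4% of all CD4 cells.

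**Figure D4:**
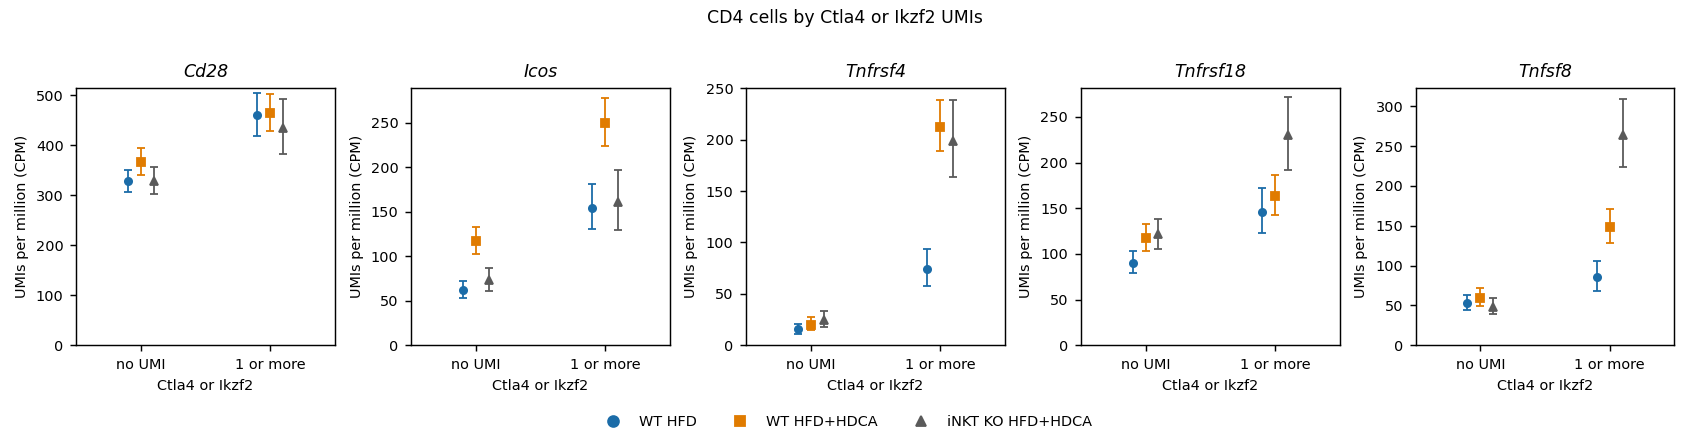
Levels in CPM (vertical axes, linear from 0) of 5 genes in CD4 cells without and with a UMI of Ctla4 or Ikzf2, each point 1 library with its exact Poisson 95% interval. Icos is higher in WT HFD+HDCA on both sides, at 117 and 249.7 CPM, whereas Tnfrsf4 without such a UMI is 15.3, 19.9 and 24.5 CPM.

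Outside CD4 cells the values past the fold were lower with hyodeoxycholic acid. Tnfrsf9 in iNKT cells went from 50.1 CPM (42.1 to 59.2) to 32.3 CPM (26.6 to 38.9), a ratio of 0.644 (0.498 to 0.833). It was past the fold under every alternative run for it. Of these, the marker minimum and the removal of the largest clonotypes left the iNKT cells unchanged, since a contig set this class. The other 9 genes of iNKT cells had ratios between 0.804 for Cd40lg and 1.19 for Tnfsf10, all under the fold. Tnfrsf9 in CD8 cells had a ratio of 0.637 (0.537 to 0.755), which was 0.984 without the largest clonotypes and 0.814 (0.549 to 1.22) after thinning. Tnfsf10 in ILC1 had a ratio of 0.629 (0.462 to 0.853), and 0.700 with at least 2 marker UMIs a cell. After thinning the ratio was 0.594 (0.319 to 1.09). Beside it, the cycling genes Mki67 and Top2a summed to 243 CPM without and 26.3 CPM with the bile acid, and their part was not tested. Tnfsf8 in Foxp3-positive cells had a ratio of 0.369 (0.171 to 0.785) on 32 UMIs, and 0.764 without the cell of each library that held most of them.

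The knockout was then set against wild-type mice on the same diet, to ask how these genes stood where iNKT cells were missing. This comparison shares the WT HFD+HDCA library with the one above, so a high or low value in that library moves both. Of 44 values, 12 were past the fold, 5 higher and 7 lower. They were 5 in Foxp3-positive cells (8.65% of all genes), 3 in CD4 cells (5.92%), 3 in ILC1 (5.98%), 1 in NK cells (4.26%) and none in CD8 cells (4.26%).

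Foxp3-positive cells had lower levels of 4 receptors in the knockout. Tnfrsf4 went from 592 CPM (531 to 659) to 292 CPM (230.4 to 365), a ratio of 0.493 (0.380 to 0.633). Tnfrsf9 had a ratio of 0.486 (0.308 to 0.742), Cd27 of 0.595 (0.421 to 0.826) and Tnfrsf18 of 0.630 (0.487 to 0.807). Cd40lg was higher, 3.18 (1.49 to 7.01), on 32 UMIs. These sums rest on 81 and 37 cells. The regulatory list itself summed to 2469 CPM in WT HFD+HDCA and 1794 CPM in the knockout. The cycling genes Mki67 and Top2a summed to 136 and 296 CPM, and the part of neither list was tested. With at least 2 Foxp3 UMIs a cell, the ratios of Cd27, 0.698, and Tnfrsf18, 0.774, were under the fold, those of Tnfrsf4, 0.555, and Tnfrsf9, 0.579, were past it, and Cd40lg had too few UMIs. The ratio of Cd27 was 0.892 (0.467 to 1.62) after thinning.

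In CD4 cells of the knockout Icos went from 169 to 94.6 CPM (82.6 to 108), a ratio of 0.559 (0.477 to 0.654). Its level in the knockout was thus near that of WT HFD, 87 CPM. Tnfrsf9, 1.69 (1.06 to 2.72) on 78 UMIs, and Tnfsf10, 1.71 (1.12 to 2.62) on 96 UMIs, were higher. The interval for Tnfrsf9 included 1 when cells with a Ctla4 or Ikzf2 UMI were left out, 1.80 (0.897 to 3.70), and the ratio was 1.08 (0.426 to 2.68) after thinning to 2000 UMIs a cell. Tnfrsf4 had a ratio of 0.707 (0.581 to 0.858), under the fold, and Tnfsf8 of 1.08 (0.908 to 1.28).

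Cd28 was past the fold downward in both innate classes of the knockout. NK cells went from 74.7 CPM (67.1 to 83) to 47.7 CPM (39.3 to 57.3), a ratio of 0.639 (0.512 to 0.792), and ILC1 from 72.4 CPM (54.6 to 94.3) to 39.1 CPM (30.8 to 49.1), a ratio of 0.540 (0.377 to 0.780). After thinning the intervals of both included 1, at 0.749 (0.501 to 1.10) and 0.521 (0.274 to 1.01). Trdc, the constant gene of the TCR delta chain, was lower in the knockout too. It went from 59.3 to 2.11 CPM in NK cells and from 6.58 to 0.522 CPM in ILC1. Trdc was the only gamma-delta T cell marker counted, so these values do not count such cells. Its part was not tested. In ILC1 Tnfrsf9, 1.56 (1.29 to 1.90) and 1.40 (0.968 to 2.07) after thinning, and Tnfsf8, 1.83 (1.16 to 3.0), were higher. In CD8 cells all 10 ratios lay between 0.747 for Fasl and 1.37 for Cd40lg. Of the 12 values, 4 stayed past the fold after cells were thinned to 2000 UMIs.

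**Figure D5:**
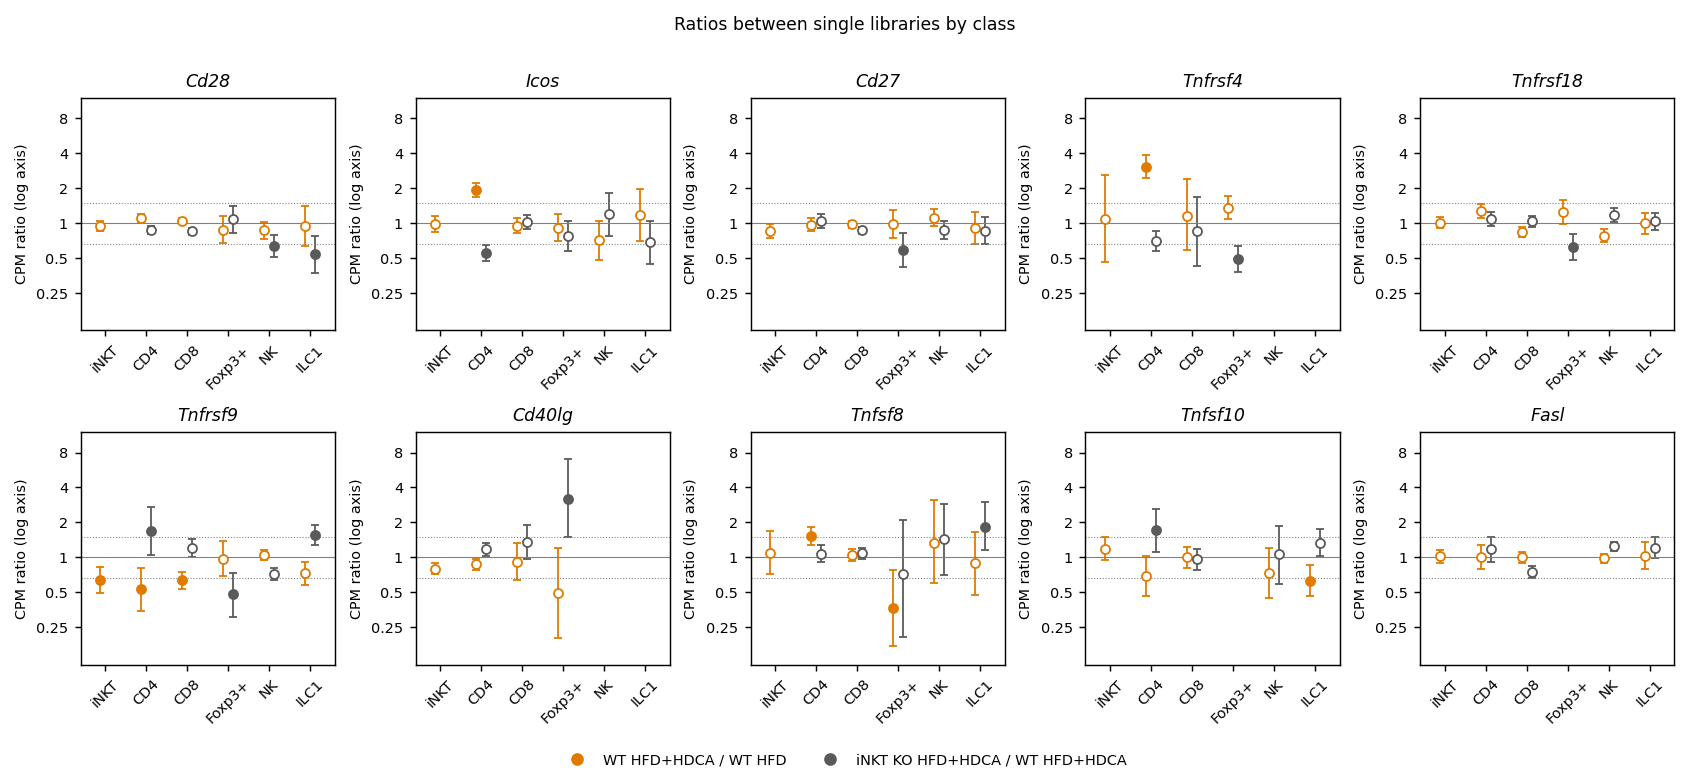
Ratios of CPM between single libraries (vertical axes, log scale) by class (horizontal axes) with conditional exact 95% intervals, for values on at least 20 UMIs. Filled points are past 1.5-fold (dotted lines) with an interval that excludes 1. In CD4 cells Icos stands at 1.95 for the bile acid and 0.559 for the knockout, with WT HFD+HDCA in both ratios.

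Other genes of the same pathways, 93 in 6 lists, were counted in the same fits as log2 differences, and every gene named here was called. Among 8 CD28 relatives and ligands, Foxp3-positive cells had 3 higher and 0 lower of 8 tested against CD4 cells, beside 4.49% and 4.82% of all genes, among them Cd80 (2.33), which encodes a ligand of CD28, and Ctla4 (2.28), the inhibitory receptor for CD80 and CD86 whose gene lies between Cd28 and Icos. Ctla4 is also a marker of regulatory cells. In iNKT against CD4 cells the list had 2 higher and 3 lower of 8 tested, beside 10.2% and 11.2% of all genes, with Ctla4 at -2.89 and Pdcd1lg2, which encodes the inhibitory ligand PD-L2, at 2.20. Median log2 differences of the list were 0.57 and -0.55, beside medians of all genes near 0.

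Of 20 other TNF receptors, 17 could be tested. ILC1 against NK cells had 6 higher and 0 lower of 17 tested, among them Tnfrsf25 (DR3) at 3.77, where 7.92% and 6.98% of all genes were called higher and lower. NK against CD8 cells had 2 higher and 7 lower of 17 tested, beside 21.7% and 23.5% of all genes, so the share of higher genes was below that of all genes. Among the lower ones were Fas, the receptor of Fas ligand, at -2.03 and Tnfrsf10b, the mouse receptor of TRAIL, at -2.62, so the cells richest in Fasl had less of its receptor than CD8 cells.

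Among other TNF ligands 9 of 13 could be tested between classes. ILC1 exceeded NK cells for Tnf (2.39), Lta (3.11) and Ltb (2.19) among 4 higher and 1 lower of 9 tested, beside 7.92% and 6.98% of all genes. The iNKT cells exceeded CD8 cells for Tnfsf11 (RANKL, 2.48), Tnfsf14 (LIGHT, 2.06) and Tnf (0.99) among 4 higher and 0 lower of 9 tested, beside 11.4% and 11.9% of all genes.

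Costimulatory receptors outside these families gave 3 higher and 5 lower of 10 tested in iNKT against CD4 cells, beside 10.2% and 11.2% of all genes, with the activating receptor gene Klrk1 (NKG2D) at 3.26, Cd226 at 1.54 and Cd5, a negative regulator of TCR signals, at -1.83. Of the genes of TNF receptor signalling, Foxp3-positive against CD4 cells had 2 higher and 0 lower of 24 tested, near the 4.49% and 4.82% of all genes called higher and lower. The 2 were Nfkbia at 0.52 and the adaptor gene Traf1 at 0.52. Of the genes of CD28 signalling they had 0 higher and 5 lower of 16 tested, against the same background, among them the adaptor gene Grap2 (-0.82) and the kinase subunit gene Pik3cd (-0.76).

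Genes with the most similar pattern over the 17 class-by-library sums were found by Pearson's r of log2(CPM + 10) among 9548 genes. Sums of one library share their depth, so r is a description. Cd28 was closest to Cd6 (0.967), another T cell costimulatory receptor, and to Btla (0.964) and Sit1 (0.963). Tnfrsf4 was closest to Hif1a (0.981), Nrn1 (0.981) and Nrp1 (0.978), and Tnfrsf18 to Niban1 (0.952), Srgn (0.949) and Rps6ka1 (0.948). Tnfsf10 followed Clec2i (0.952), Cd226 (0.923) and Krt83 (0.904), and Fasl followed Ifitm10 (0.972), Enpp4 (0.970) and Sytl3 (0.968). Icos was closest to Smco4 (0.976), Smpdl3a (0.975) and Lpcat1 (0.961), Cd27 to Nt5e (0.943), Rhoh (0.935) and Phf11c (0.933), and Tnfrsf9 to Mmd (0.957), Ehd4 (0.950) and Sdc4 (0.929). For Cd40lg they were Igsf23 (0.948), Mpzl3 (0.921) and Ldhb (0.915), and for Tnfsf8 they were Saraf (0.884), Pdk1 (0.881) and Eif3e (0.848). Among the members, Icos and Tnfrsf4 had the highest r (0.883), and Cd27 and Fasl the lowest (-0.906).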

How the data were processed

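Liver cells of 3 groups were measured by droplet RNA sequencing with matched TCR libraries. The deposited RNA values are counts, namely unnormalised UMIs per gene and barcode, and the deposited contig tables give counts of reads and UMIs per TCR contig, per the file headers. Cell Ranger 8.0.1 and the builds mm10 and GRCm39 are named per the submitters' processing notes, which give no role for either build. The contig tables hold contigs marked productive, of full length and of high confidence.

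Barcodes with fewer than 200 genes or 10% or more mitochondrial UMIs were left out, as were the 3.47% to 4.91% that Scrublet (scanpy 1.11.5) marked as doublets. Classes came from contigs and marker UMIs only. NK cells and ILC1 needed a UMI of Ncr1 or Klrb1c, and T, NK and ILC1 cells with at least 2 UMIs of Cd79a, Ms4a1 or Csf1r were left out. UMIs were summed per class and library in 17 sums. They were tested with edgeR 4.0.16 (quasi-likelihood, TMM, filterByExpr, library as a term, 9 residual degrees of freedom, Benjamini-Hochberg adjustment over 12137 genes), a fit tested on simulated data. The split by clonotype size had a fit of its own with 6 residual degrees of freedom over 10857 genes. A further split of CD4 and CD8 cells is not reported here. The iNKT class enters with 2 libraries. Libraries were treated as the replicates of a class. Nothing says how many animals each holds, so p-values measure the spread between these libraries.

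Ratios between groups rest on 1 library each and have no test, and intervals cover counting error only. Alternatives were DESeq2 1.42.0, other filters, scalings and marker minimums, left-out libraries, clones and cells, and thinning to 2000 UMIs. The restriction of ratios to CD4 cells without Ctla4 or Ikzf2 was added after the data were seen. All 10 members are named. Genes of the other lists were named by size of change among those called, up to 3 per direction, and like genes as the 3 highest in r. The members, lists and tests were chosen with earlier results of these data known.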

Additional observations from a re-analysis of the deposited data

Results flagged for a closer look

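With the bile acid against the plain high-fat diet, the Tnfsf8 ratio was 1.53 in CD4 cells and 0.369 in Foxp3-positive cells, on opposite sides of 1. The difference between the classes was not tested, and the latter value rests on 32 UMIs.

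The Tnfrsf9 ratio of the knockout to WT HFD+HDCA was 1.69 in CD4 cells and 1.56 in ILC1, but 0.486 in Foxp3-positive cells. The ratio thus lay above 1 in CD4 cells and ILC1 and below 1 in Foxp3-positive cells, and the difference between classes was not tested. After thinning to 2000 UMIs a cell it was 1.08 (0.426 to 2.68) in CD4 cells and 1.40 (0.968 to 2.07) in ILC1, with 1 in both intervals.

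The largest clonotype of the knockout library, with 39 cells, lay almost wholly outside the classes compared above, since 38 of its cells fell into no class. Cd4, Cd8a and Foxp3 were at 0 in it. It carried Cd40lg at 341 CPM (273 to 420) on 87 UMIs, beside 203 CPM in the CD4 cells of the same library. Its Tnfrsf18 level was 255 CPM, Fasl 243, Cd28 211 and Tnfsf10 114 CPM. Zbtb16, a transcription factor gene of innate-like T cells, stood at 58.7 CPM.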

How the results depend on the processing

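Of 63 calls of a member in a class or clonotype contrast, 51 were kept under all 12 alternatives. Not every alternative changes the sums of every contrast. The removal of the largest clonotypes and the restriction of CD4 cells leave NK cells, ILC1 and iNKT cells as they were. Single log2 differences were followed for these 63 calls and for a chosen part of the values not called. Of these, 817 kept their direction and side of the threshold, 22 fell short of it, 7 newly passed it and 6 changed sign. The uncalled values left out, among them all those of the clonotype contrasts, are not in these counts. The 7 and 6 are thus lower bounds. The number of members called between iNKT and CD4 cells was 8, and ran from 5 to 8 over the left-out libraries. In expanded CD8 clonotypes 4 were called, against 7 with no filter on low counts and 7 with total UMIs as the only scaling. Values past the fold numbered 5 instead of 8 for the bile acid, and 4 instead of 12 for the knockout, once cells were thinned to 2000 UMIs. For the bile acid, thinning removed Tnfrsf9 in CD4 and CD8 cells, Tnfsf8 in Foxp3-positive cells and Tnfsf10 in ILC1. The 5 thus include a value that was not among the 8. The changes of sign touched values that were not called. The log2 difference of Icos between iNKT and CD4 cells became 0.15 in CD4 cells without Ctla4 or Ikzf2, and ran from -0.54 without WT HFD to 0.11 without WT HFD+HDCA. That of Cd40lg became 0.0043 with DESeq2, 0.042 with total UMIs only, and ran from -0.076 without the knockout to 0.013 without WT HFD+HDCA. In CD4 cells without Ctla4 or Ikzf2, Tnfsf8 became 0.21 for CD8 against CD4 cells. The Tnfrsf9 ratio for the bile acid in CD4 cells was 1.07 after thinning. The causes were not tested.

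Without the replicate block, that is with no library term, 6 members were called between iNKT and CD4 cells instead of 8, and the counts of the other 8 contrasts did not move. Depth limits members under 20 UMIs in a class, which were given no ratio. Shares of cells with a UMI fell on thinning by construction.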
